A study of Mus musculus with 4 samples.

Results

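Single-cell RNA sequencing of the mouse epididymis and vas deferens was used to follow 7 genes whose proteins bind, store or carry iron, copper and zinc: the metallothioneins *Mt1* and *Mt2*, the ferritin heavy chain *Fth1*, lactotransferrin *Ltf*, transferrin *Trf*, the transferrin receptor *Tfrc* and ceruloplasmin *Cp*. They were chosen by name, and all 7 were found among the 16892 genes of the count table. The table holds 8880 cells in 4 libraries, the caput, corpus and cauda of the epididymis and the vas deferens, each made from 8 segments pooled from 4 male FVB/NJ mice of 10 to 12 weeks. No allele and no treatment was named for the animals. The tissue was washed to remove sperm and taken apart with collagenase IV and then trypsin, and all groups shared these steps. Each region was 1 library with no replicate, so region and library cannot be told apart, no test between regions was possible and no p-value is given. A level is the number of UMIs (unique molecules counted) of a gene summed over cells, per 1000000 UMIs of those cells, with an exact 95% Poisson interval in brackets, which covers counting error only.

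The cells had been sorted by the study into 34 populations, which fall into 7 types: 3956 principal, 348 clear, 1412 basal, 2222 stromal, 502 muscle, 245 endothelial and 195 immune cells. The study drew these populations from the counts used here, and a difference between types is a description. Of 31 marker genes, 30 were highest in their own type, and the exception was *Itga6*, a basal marker that was highest in endothelial cells. Libraries held 1433 to 3506 cells and 4408989 to 10744928 UMIs, with 1433 to 2207 UMIs in the median cell, and 43 cell barcodes were found in more than 1 library (86 cells). Muscle cells numbered 0 in the caput and 7 in the corpus, so muscle is compared between the cauda and the vas deferens.

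Iron enters most cells as transferrin bound to its receptor, is stored as ferric iron inside the ferritin shell, and leaves through ferroportin with the help of a copper-dependent ferroxidase such as ceruloplasmin. Cells set ferritin and receptor after transcription: the iron regulatory proteins bind a hairpin, the iron-responsive element (IRE), which holds back translation when it lies in the 5′ UTR of ferritin mRNA and protects the receptor mRNA when it lies in the 3′ UTR. Metallothioneins are small cysteine-rich proteins that buffer zinc and copper, and their transcription is raised by metal through MTF1, which binds metal response elements, and by glucocorticoid. Lactotransferrin is an iron-binding protein of secretions and of neutrophil granules. The lumen of the epididymis, where sperm mature, is bounded by principal cells that secrete proteins, clear cells that acidify the fluid, and basal cells.

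The IRE letters are shown because they are what *Fth1* and *Tfrc* mRNAs share, although the counts read mRNA and not protein. The search took C, 5 bases, CAGTG and 6 bases in which the 5 bases before the CAGTG pair with the last 5 (G-U pairs allowed), on the sense strand of UTRs in GENCODE on GRCm38; the loop is in capitals. *Fth1* held 1 match in its 5′ UTR (chr19:9982738-9982754, plus strand), as did the ferritin light chain *Ftl1* (chr7:45459785-45459801, minus strand) and the iron exporter *Slc40a1* (chr1:45925471-45925487, minus strand), and *Tfrc* held 4 in its 3′ UTR (chr16:32631225-32631241, chr16:32631604-32631620, chr16:32631669-32631685 and chr16:32631716-32631732, plus strand). Matches were found in the 5′ UTR of 31 of 21901 genes (0.142%) and in the 3′ UTR of 129 (0.589%). A match is a description of the letters.
Fth1 5′ UTR: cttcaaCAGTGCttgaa
Ftl1 5′ UTR: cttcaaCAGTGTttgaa
Slc40a1 5′ UTR: cagctaCAGTGTtagct
Tfrc 3′ UTR, 32631225: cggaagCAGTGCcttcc
Tfrc 3′ UTR, 32631604: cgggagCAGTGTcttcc
Tfrc 3′ UTR, 32631669: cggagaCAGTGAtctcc
Tfrc 3′ UTR, 32631716: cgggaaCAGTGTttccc

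The promoters of the neighbouring genes *Mt1* and *Mt2* are shown because their levels moved together over the populations. RefSeq windows of 300 bases on GRCm38.p6 were searched on both strands for TGCACNC and TGCGCNC, the core of the metal response element, and matches are in capitals. The *Mt1* window (chr8:94178839-94179138, plus strand) held 3 cores, starting at -23, +3 and +21 from RefSeq's start of transcription. The *Mt2* window (chr8:94172368-94172667, plus strand) held 4, starting at -223, -128, -50 and +5, of which the last 2 were on the other strand; GENCODE places the start of *Mt2* downstream of RefSeq's. Of 32851 windows of this kind, 1.97% held at least 3 cores and 0.517% at least 4. The windows of *Fth1*, *Ltf* and *Cp* held 0, and 1 of the 2 *Tfrc* windows held 2 overlapping matches.
Mt1 promoter: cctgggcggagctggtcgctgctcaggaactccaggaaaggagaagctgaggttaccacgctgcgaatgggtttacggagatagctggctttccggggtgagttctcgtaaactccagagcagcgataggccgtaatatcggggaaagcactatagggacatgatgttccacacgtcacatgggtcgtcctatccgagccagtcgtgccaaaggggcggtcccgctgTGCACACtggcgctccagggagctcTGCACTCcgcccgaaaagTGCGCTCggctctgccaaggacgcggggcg
Mt2 promoter: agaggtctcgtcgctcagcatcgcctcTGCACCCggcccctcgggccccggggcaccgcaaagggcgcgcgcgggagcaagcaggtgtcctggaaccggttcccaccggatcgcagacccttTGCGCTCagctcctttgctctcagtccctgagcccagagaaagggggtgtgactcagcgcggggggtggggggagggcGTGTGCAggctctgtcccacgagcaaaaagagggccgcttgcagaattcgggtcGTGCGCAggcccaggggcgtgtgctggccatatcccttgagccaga

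*Mt1* and *Mt2* (chromosome 8, 94179082 to 94180327 and 94172664 to 94173568, plus strand) were detected in every cell type, with the lowest levels in immune and endothelial cells. *Mt1* was 17893 per 1000000 UMIs in stromal cells, followed by 11951 in principal, 11595 in basal, 11130 in clear, 9199 in muscle, 4108 in immune and 2532 in endothelial cells. *Mt2* was 12340 in stromal, 12049 in basal, 5953 in principal, 5804 in clear, 4560 in muscle, 3050 in endothelial and 1737 in immune cells. The order is loose: for *Mt1* only muscle and immune cells were neighbours whose ranges over libraries did not overlap, and for *Mt2* no pair of neighbours was so separated. Stromal cells were above principal cells in 4 of 4 libraries for both genes, though by 1.04 times only for *Mt1* in the vas deferens, and for *Mt1* endothelial and immune cells were below principal cells in 4 of 4. Stromal and basal cells differed by 1.02 times for *Mt2*, and basal cells were the higher without the vas deferens library.

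Both metallothioneins were highest in the vas deferens when principal cells were compared along the duct. *Mt1* in principal cells was, from caput to vas deferens, 7211, 5304, 4224 and 18581. The last value was 2.58 times (2.53 to 2.63) that of the caput and 4.40 times (4.30 to 4.51) that of the cauda. *Mt2* was 2765, 2684, 1527 and 9762 in the same order, and the vas deferens stood 6.39 times (6.15 to 6.65) above the cauda. The 4 populations found almost wholly in the vas deferens, principal 12 to 15, were all above the other 11 for both genes, with *Mt1* between 11211 and 25677 against 1739 to 9672. Within principal 11, with 141 cauda and 100 vas deferens cells, *Mt1* was 2713 (2514 to 2923) and 5103 (4682 to 5551), so the vas deferens was higher there also. *Mt2* in the same cells was 1187 and 3041. In principal 10 (166 and 16 cells) *Mt1* was 2653 and 4103, and *Mt2* was 941 and 1539. In principal 9 (100 and 26 cells) *Mt1* was 4388 and 5632. *Mt2* there was not higher in the vas deferens, at 1898 (1734 to 2073) in the cauda and 1662 (1449 to 1898) in the vas deferens.

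Other types shared the order in part. In muscle the cauda was the higher library, with *Mt1* at 17240 against 7587 in the vas deferens, and this held in muscle 1 (10006 against 5484) and muscle 2 (18225 against 8155). In basal cells the cauda alone was low for *Mt1*, and the other libraries were close, at 6593 against 12494, 12511 and 12528 in the caput, corpus and vas deferens. In stromal cells the cauda was again the lowest for *Mt1*, at 11241 against 16698 to 20640 in the other libraries. In myofibroblasts, found in all libraries, *Mt1* was 16321, 22018, 11424 and 22943 from caput to vas deferens, so the vas deferens was highest and the cauda lowest, as in principal cells. For *Mt2* the corpus was highest in myofibroblasts, at 16152 against 10644 in the vas deferens. In clear cells the corpus was highest for *Mt1*, at 14315 against 8378 to 10342 in the others. In endothelial cells *Mt2* reached 7849 in the corpus (39 cells) and 1419 to 1942 elsewhere.

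**Figure D1:**
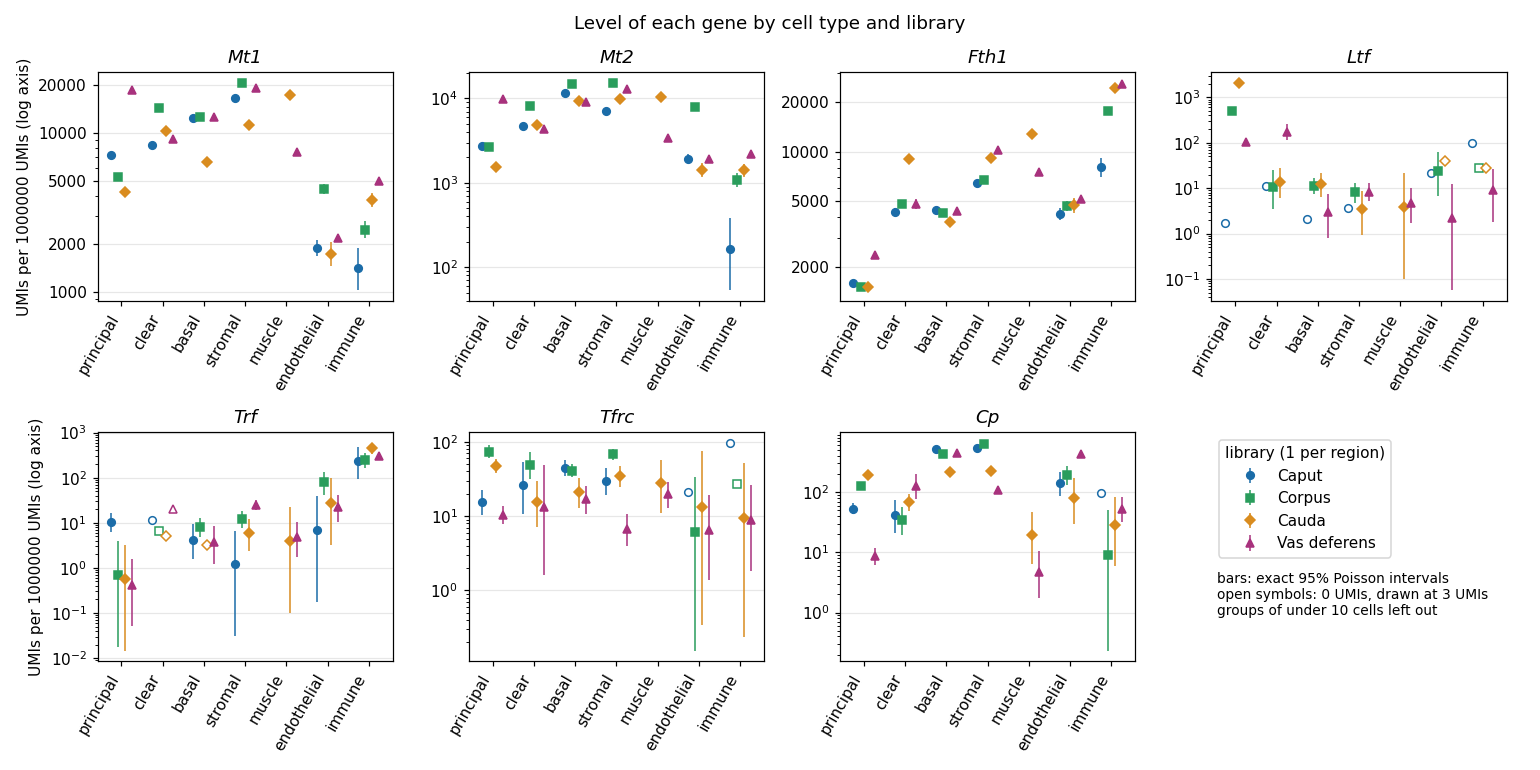
Level of each of the 7 genes (UMIs per 1000000 UMIs, log axes) in 7 cell types, 1 symbol for each library, with exact 95% Poisson intervals; open symbols are 0 UMIs drawn at the level of 3 UMIs. *Mt1* in principal cells is highest in the vas deferens at 18581, *Ltf* in principal cells is highest in the cauda at 2088, and *Trf* is highest in immune cells in each library.

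The ratio of *Mt1* to *Mt2* UMIs was lower in basal than in principal cells, taken as types, although both genes varied together. The 2 mRNAs are counted at their 3′ ends in the same cells, so the ratio needs no total, but it compares genes whose capture may differ, and only its change between cells is described. It was 1.46 (1.45 to 1.47) over all cells, 2.01 (1.99 to 2.03) in principal, 1.92 in clear, 2.02 in muscle, 2.36 in immune and 1.45 in stromal cells, against 0.962 (0.953 to 0.972) in basal and 0.830 (0.783 to 0.880) in endothelial cells. Of the 34 populations 29 had an interval above 1 and 5 an interval below 1, namely the main, low-UMI and Notch2-high basal cells, the endothelial cells and the secretory stromal cells of the vas deferens. In each library the ratio of basal cells was below that of principal cells: 1.07 against 2.61 in the caput, 0.838 against 1.98 in the corpus, 0.697 against 2.77 in the cauda and 1.39 against 1.90 in the vas deferens. Endothelial cells too were below principal cells in each, with 0.971, 0.566, 1.22 and 1.13 from caput to vas deferens. Single populations did not all follow their type. Low-UMI basal cells of the vas deferens were at 1.96 (1.58 to 2.42), the basal-macrophage population at 1.89 (1.24 to 2.91) and principal 4 at 1.36 (1.09 to 1.70). The side of 1 rested on the corpus for most of these cells: without that library basal cells were at 1.08 (1.07 to 1.10), endothelial cells at 1.10 (1.02 to 1.19), main basal cells at 1.10 and Notch2-high basal cells at 1.01 (0.966 to 1.06). Without the cauda basal cells were at 0.999 (0.988 to 1.01) and main basal cells at 1.01. Low-UMI basal cells were at 0.961 without the corpus and 0.961 without the caput, with intervals that held 1. In stromal cells the ratio was 2.32, 1.34, 1.13 and 1.5 in the same order.

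**Figure D2:**
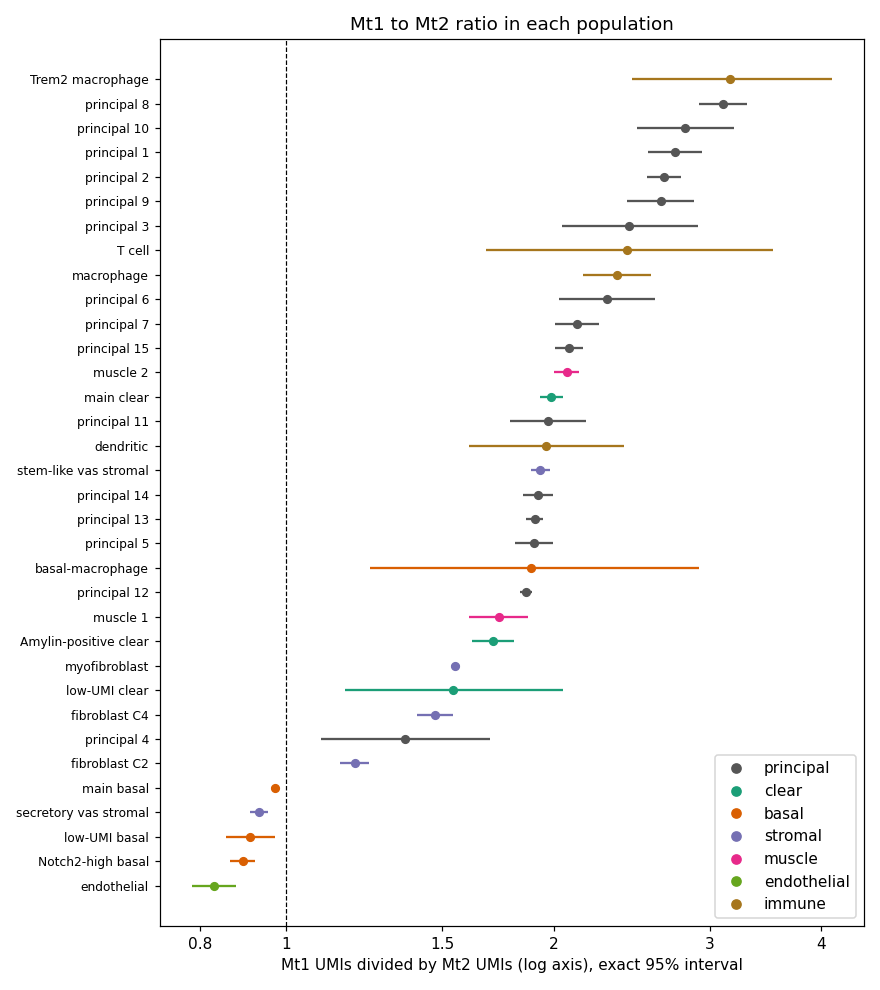
*Mt1* UMIs divided by *Mt2* UMIs in each of the 34 populations (log axis), with exact 95% intervals; the dashed line marks equal counts. All 15 principal populations lie to the right of 1, and 3 basal populations, the endothelial cells and the secretory vas stromal cells lie to the left, which for main and Notch2-high basal and endothelial cells was not so without the corpus library.

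*Fth1* (chromosome 19, 9980598 to 9985098, plus strand), the subunit that oxidises iron as it enters ferritin, was lowest in principal cells and highest in macrophages. Its level was 1951 per 1000000 UMIs in principal, 4259 in basal, 4863 in endothelial, 6380 in clear, 8397 in muscle, 8491 in stromal and 22918 in immune cells. Immune cells stood 11.7 times (11.5 to 12.0) above principal cells, and each other type with at least 10 cells was above principal cells in every library. Principal and basal cells were the only neighbours whose ranges over libraries did not overlap, with 1513 to 2368 in principal and 3756 to 4454 in basal cells. A share of cells gave the same order at equal depth: thinned to 1000 UMIs, 64.5% of principal cells held a *Fth1* UMI (44.2% without thinning) against 98.4% of stromal cells (89.5%).

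Among immune cells the macrophages carried *Fth1*. The macrophage population was at 33145 (32504 to 33796), the Trem2 macrophages at 25794, the dendritic cells at 6519 and the T cells at 5302. Macrophages are known to recycle iron from engulfed red cells and to hold it in ferritin. Immune cells of the caput, only 11 of them, were at 8039, those of the corpus at 17608 and those of the other libraries at 24046 (cauda) and 25642, and macrophages and Trem2 macrophages were 4 and 3 of those 11 cells and 68 and 10 of the 118 in the vas deferens. Within the macrophage population *Fth1* was 18642 in the corpus (17 cells), 32605 in the cauda (15 cells) and 37363 in the vas deferens. Among principal cells *Fth1* was 1615, 1513, 1520 and 2368 from caput to vas deferens, and by population it went from 374 in principal 4 to 2883 in principal 12. The vas deferens was thus the highest library, as for the metallothioneins, by 1.57 times over the corpus. In clear cells the cauda was high, at 8962 against 4321 to 4847 elsewhere. Reads that fit several places were dropped in counting, and GENCODE lists processed pseudogenes of both ferritin chains, so the absolute levels of *Fth1* and *Ftl1* are uncertain.

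The light chain followed the heavy chain in part. *Ftl1* was highest in immune cells at 10786 and lowest in muscle at 1974, and clear cells came next at 7389, stromal and basal cells at 4959 and 4833, and endothelial and principal cells at 2662 and 2376. Muscle was thus among the higher types for the heavy chain and the lowest for the light chain. Over the 34 populations *Ftl1* was the third most similar gene to *Fth1* of 11083 compared, with Pearson's r of 0.87 on the log scale, after *Rbm7* (0.88) and *Mcl1* (0.87).

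*Ltf* (chromosome 9, 111019271 to 111042767, plus strand) was a principal-cell gene of the corpus, the cauda and part of the vas deferens. Its level was 503 per 1000000 UMIs (4814 UMIs) in principal cells, 26.7 in clear cells and 4.59 to 7.12 in the other types. Principal cells were 18.9 times (13.8 to 26.6) above clear cells. In principal cells the caput held 0 UMIs, with an upper bound of 2.14. The corpus held 497 (461 to 535), the cauda 2088 (2020 to 2157) and the vas deferens 102 (92.9 to 111). The cauda was at least 1199-fold higher than the caput and 4.20 times (3.87 to 4.56) above the corpus. That interval holds 4, the fold asked of a gene called restricted to 1 region, and with the mean over cells in place of summed UMIs the log2 ratio of 2.07 fell to 1.77 and the call was lost. Without the cauda library principal cells remained highest, but the log2 ratio to the next type went from 4.24 to 2.10, and without the vas deferens it was 6.49.

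By population *Ltf* differed in steps. It was at 0 UMIs in principal 1, 2 and 3 and at 17.4 and 14.4 in principal 4 and 5, all found in the caput and corpus. It stood at 1365 (1256 to 1480) in principal 6 and 402 (355 to 454) in principal 7 of the corpus, and at 1587, 1163, 3529 and 2266 in principal 8, 9, 10 and 11, which lie in the cauda or on both sides of the passage into the vas deferens. Principal 10 was 1.56 times (1.43 to 1.70) above principal 11. In principal 12, 13, 14 and 15 it was back at 11, 41.5, 14.7 and 24.3. In populations shared between libraries the cauda and the vas deferens were close for principal 9 (1095 and 1298) and principal 10 (3521 and 3847), while cauda cells of principal 11 were at 2709 (2510 to 2919) and its vas deferens cells at 1224 (1023 to 1453). Without principal 11 the principal cells of the vas deferens were at 75.8 (68.1 to 84.2). Cauda cells placed in principal 6 (13 cells) and principal 7 (18 cells) were at 5184 (4146 to 6402) and 1685, against 1211 and 332 in the corpus cells of the same populations. Ribosomal protein genes were at 53465, 52438 and 75389 in principal 6, 10 and 11, and at 154634, 197189 and 220857 in principal 7, 8 and 9. In principal 3 and 4, where *Ltf* was 0 and 17.4, they were at 61421 and 22361. Over the 34 populations their Pearson's r with *Ltf* was -0.26, and their part in the steps of *Ltf* was not tested.

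**Figure D3:**
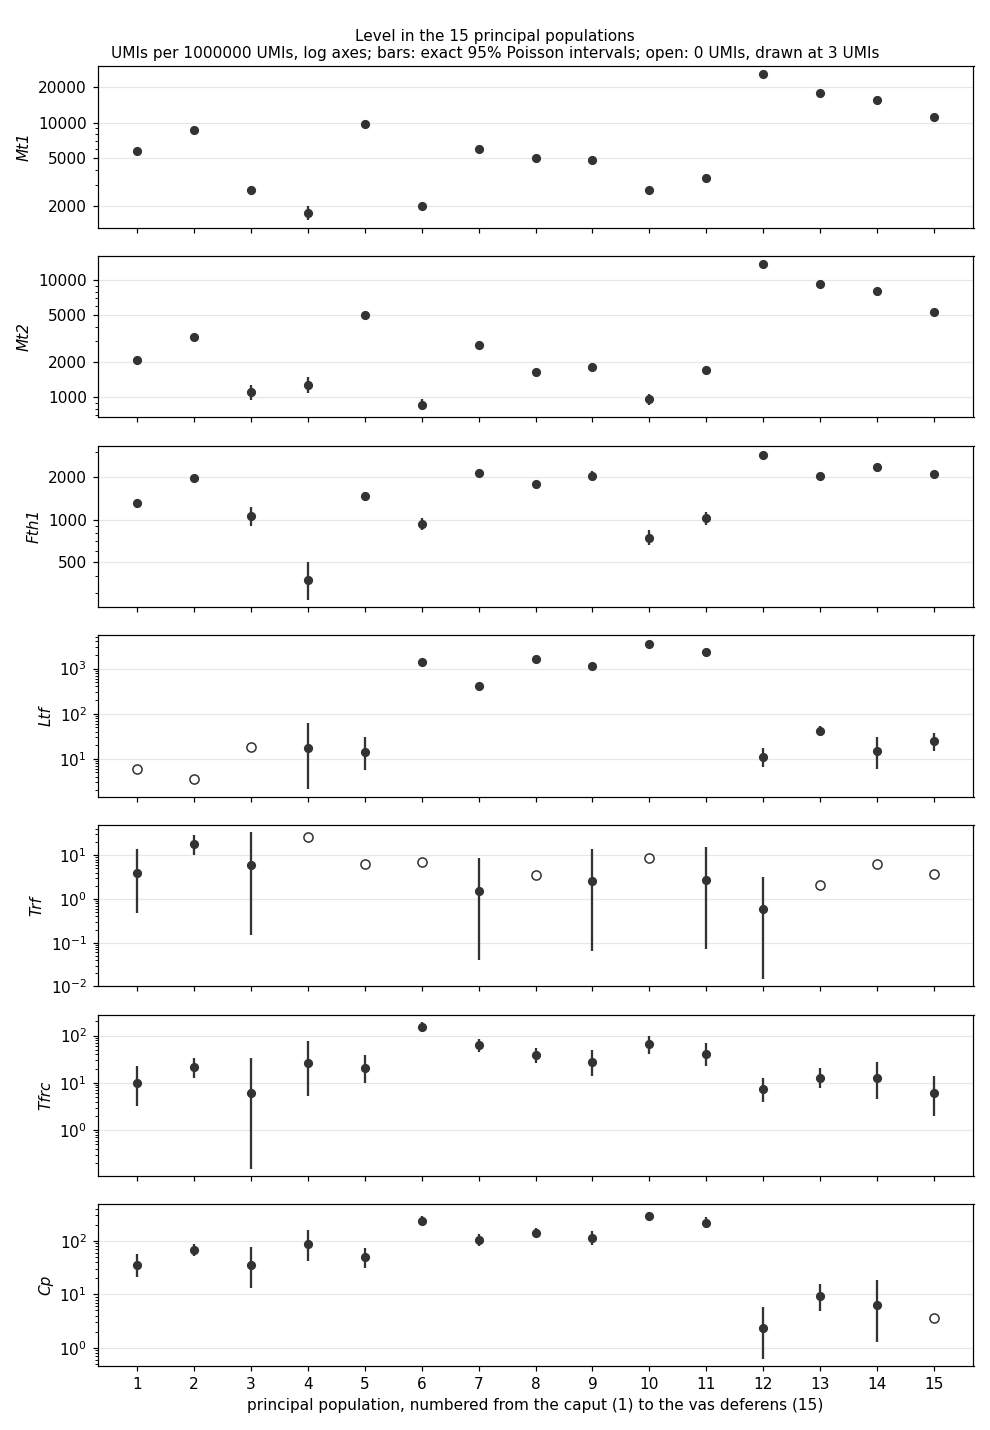
Level of the 7 genes in the 15 principal populations, numbered from the caput to the vas deferens (log axes, exact 95% Poisson intervals, open symbols 0 UMIs drawn at 3 UMIs). *Ltf* is above 400 in principal 6 to 11 and below 42 elsewhere, while *Mt1* and *Mt2* are highest in principal 12 to 15 and *Cp* is below 10 there.

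The share of principal cells with *Ltf* followed its level. Thinned to 1000 UMIs, 296 of 433 cauda cells held a *Ltf* UMI (68.4%, 63.7 to 72.7, 52.5% without thinning), against 25.1% in the corpus (24.9%), 6.34% in the vas deferens (10.7%) and 0 of 342 in the caput, which allows a share of cells with a UMI of up to 0.877% by 3 counts and 1.07% by the exact interval. Thinning left out 498 of the 931 cauda cells. Over all libraries the share was 22.8% of principal cells and 0.590% of stromal cells (21.9% and 1.80% without thinning), which should lack the gene, with median depths of 934.5 and 2716.5 UMIs. In the cauda 94 of the 931 principal cells held 49.3% of the *Ltf* UMIs, and the most in 1 cell was 41. Neutrophil granules also hold this protein, and the neutrophil list summed to 277 per 1000000 UMIs in the 489 cauda principal cells with *Ltf* and 294 in the 442 without it. Of its 5 genes in the table *Ngp* and *Camp* were at 0 UMIs in both, and *S100a8* gave 422 of the UMIs in cauda principal cells and 0 in cauda immune cells.

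The *Ltf* of clear cells in the vas deferens came from few cells. Its level there was 174 (113 to 254), against 0, 10.7 and 13.8 from caput to cauda, and all 26 UMIs lay in 4 of the 38 cells. Those 4 cells had a median of 9126 UMIs and principal-cell markers at 29925 per 1000000 UMIs, with 3 of the 6 markers at 0. The 34 cells without *Ltf* had a median of 1214 UMIs and the same markers at 4638. The part of these markers in the result was not tested.

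A second iron-related secreted protein, lipocalin 2, which binds the siderophores that bacteria use to take up iron, lay at the other end of the duct. *Lcn2* in principal cells was 5695 per 1000000 UMIs in the caput, 99.4 in both corpus and cauda and 17.3 in the vas deferens. Its level was 9194 in principal 1, 426 in principal 4 and 82.2 in principal 6, where *Ltf* was 1365. In the cauda 489 principal cells held *Ltf*, 105 held *Lcn2* and 73 held both, and in the caput 426 held *Lcn2* and 0 held *Ltf*. Basal cells, with *Ltf* at 7.12, held *Lcn2* at 3482.

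*Trf* (chromosome 9, 103204001 to 103230444, minus strand), the iron carrier of plasma and of several epithelial fluids, was an immune-cell gene here. It was at 318 per 1000000 UMIs (185 UMIs) in immune cells, 31.1 in endothelial, 14.5 in stromal, 5.01 in basal, 4.59 in muscle and 2.30 in principal cells, with 0 UMIs in clear cells. Immune cells were 10.2 times (6.75 to 16) above endothelial cells and 155-fold higher than clear cells with the 0 of clear cells set to 3 UMIs. Immune cells were at 229 (92.0 to 471), 247, 453 and 306 from caput to vas deferens, above every other type in each library. Thinned to 1000 UMIs, 37 of 158 immune cells (23.4%, 44.6% without thinning) held a *Trf* UMI and 0 of 238 clear cells did, which allows a share of cells with a UMI of up to 1.26% by 3 counts and 1.54% by the exact interval; their median depths were 2887 and 4430 UMIs. An overlapping gene on the same strand in GENCODE, *Gm20425*, was not a row of the count table.

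All 4 immune populations held *Trf*. It was at 637 (472 to 839) in Trem2 macrophages (26 cells), 329 (268 to 400) in macrophages, 199 (125 to 302) in T cells and 139 (71.7 to 242) in dendritic cells. The highest population was labelled basal-macrophage, 15 cells grouped with the basal type, at 941 (590 to 1425). Its interval and that of the Trem2 macrophages overlapped, with a ratio of 1.48 (0.853 to 2.49). Macrophage markers in the 10 of these 15 cells that held *Trf* summed to 20450 per 1000000 UMIs, and over all basal cells they were at 7619 in the 18 with *Trf* and 19.4 in the 1394 without it. Main basal cells were at 1.37 (7 UMIs).

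Some stromal, endothelial and principal cells held smaller amounts of *Trf*. The secretory stromal cells of the vas deferens were at 54.8 (38.6 to 75.5), with 37 UMIs in 16 of 226 cells and macrophage markers at 0 UMIs in the cells with and without it. Fibroblast C2 cells were at 32.6 (19.3 to 51.5). Over all stromal cells the macrophage markers were at 245 in the 52 cells with *Trf* and 7.17 in the others, and their part in the result was not tested. In the caput 18 UMIs gave principal cells a level of 10.4 (6.19 to 16.5), against 0.705, 0.575 and 0.427 in the corpus, cauda and vas deferens, and 15 of those 18 were in principal 2, in 9 cells whose macrophage markers held 1 UMI.

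**Figure D4:**
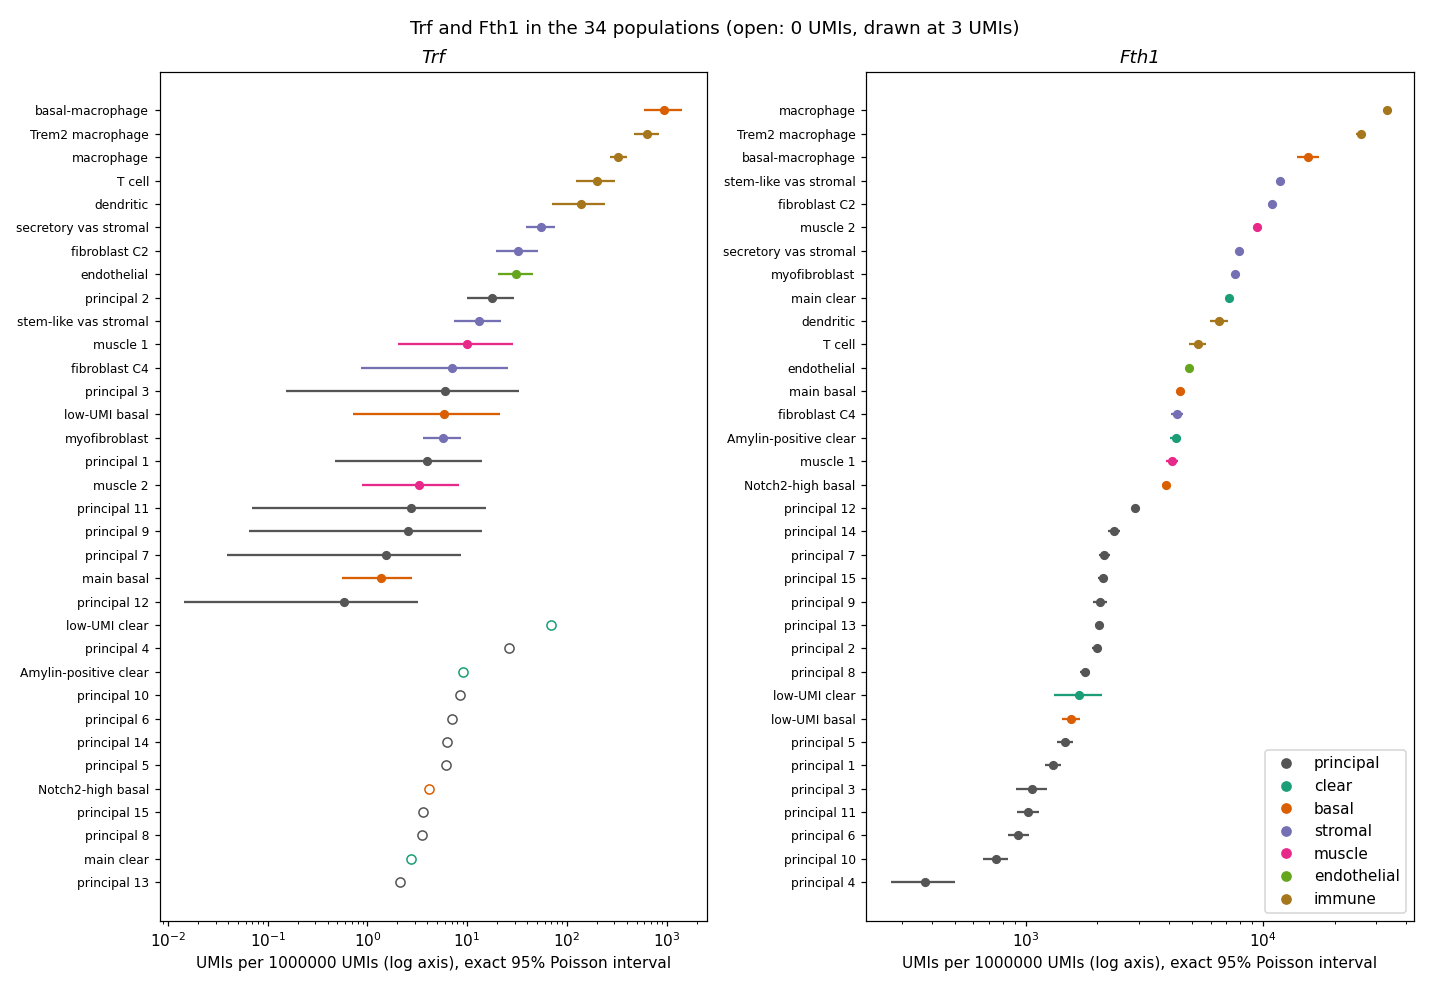
*Trf* and *Fth1* in the 34 populations, ordered by level (UMIs per 1000000 UMIs, log axes, exact 95% Poisson intervals, open symbols 0 UMIs drawn at 3 UMIs). Macrophage and Trem2 macrophage populations lead *Fth1* at 33145 and 25794, and *Trf* is highest in the basal-macrophage population at 941 and at 0 UMIs in 12 populations.

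*Tfrc* (chromosome 16, 32608920 to 32632794, plus strand), the receptor that takes up iron-loaded transferrin, was low in every type. It was 33.5 per 1000000 UMIs in basal, 33.4 in stromal, 28.0 in clear, 27.6 in principal and 21 in muscle cells, with intervals of neighbours that overlapped, and 6.87 in immune (4 UMIs) and 5.99 in endothelial cells (5 UMIs). The ratio of basal to stromal cells was 1.0 (0.823 to 1.22). The intervals of immune and endothelial cells lay below those of basal, stromal, clear and principal cells, though they rest on few UMIs. All 4 immune UMIs lay in the 26 Trem2 macrophages, at 50.9 (13.9 to 130), so the low immune level does not describe that population. After thinning, 0.50% to 4.20% of cells of a type held a UMI. Differences among basal, stromal, clear, principal and muscle cells were hardly detectable at this depth, and no type is known to lack the gene.

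Along the duct *Tfrc* was highest in the corpus and lowest in the vas deferens in principal, stromal and clear cells. From caput to vas deferens principal cells held 15.7 (27 UMIs), 74.0 (105 UMIs), 47.7 (83 UMIs) and 10.5 (49 UMIs). Corpus principal cells were 7.07 times (4.99 to 10.1) above those of the vas deferens. In stromal cells it was 29.9, 68.1, 34.9 and 6.78 in the same order, with the corpus 10.0 times (6.04 to 17.8) above the vas deferens. The stromal cells of the vas deferens were mostly of its own 2 populations, but myofibroblasts, found in all libraries, gave 25.0, 58.7, 38.2 and 4.93. In basal cells the caput and corpus were close (44.6 and 41.0) and the cauda and vas deferens lower (20.9 and 17). Clear cells gave 26.3, 49.3, 15.5 and 13.4, the last from 2 UMIs.

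*Cp* (chromosome 3, 19957054 to 20009145, plus strand), the copper-dependent ferroxidase, was highest in basal, stromal and endothelial cells when libraries were pooled. Its level was 424 per 1000000 UMIs in basal cells, with 344 in stromal, 305 in endothelial, 68.2 in principal, 58.8 in clear, 37.8 in immune and 7.87 in muscle cells. In the cauda principal cells, at 194, were close to basal (215) and stromal cells (228) and above endothelial cells (80.3). Principal 10, 6 and 11 were at 289, 240 and 221, against 226 in secretory and 55.2 in stem-like stromal cells of the vas deferens. Basal cells were 1.23 times (1.16 to 1.31) above stromal cells, with overlapping ranges over libraries, and without the vas deferens library stromal cells were the higher (a log2 ratio of -0.23 in place of 0.30). Thinned to 1000 UMIs, 32.7% of basal cells (71.4% without thinning), 20.9% of stromal and 22.0% of endothelial cells held a UMI, against 0.826% of muscle cells, and the medians were 4333 UMIs in basal and 1803 in muscle cells. The gene overlaps *Hps3* on the other strand, and how strand entered the counting is not given in the sources used here.

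Regional *Cp* differed by type. Principal cells held 53.4, 129, 194 and 8.54 from caput to vas deferens, the cauda being 22.7 times (16.3 to 32.3) above the vas deferens. In stromal cells it was 533, 632, 228 and 110 in the same order, and in myofibroblasts alone 505, 562, 186 and 55.9. In basal cells the cauda was lowest, at 215 against 436 to 527 in the other libraries, and main basal cells gave 464, 393, 213 and 438. In endothelial cells the vas deferens was highest, at 433 (375 to 498) against 141, 195 and 80.3 from caput to cauda. Lymphatic endothelial markers were at 247 in the 90 endothelial cells with *Cp* and 36.0 in the 155 without it, and their part in the result was not tested. So the vas deferens was the lowest library for *Cp* in principal and stromal cells and the highest in endothelial cells.

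The populations highest for *Tfrc* and for *Cp* had little ribosomal protein mRNA and few UMIs per cell, but not all such populations were high. Low-UMI basal cells (median 900 UMIs) had *Tfrc* at 124, *Cp* at 1094 and *Fth1* at 1551, with ribosomal protein genes at 70203 per 1000000 UMIs, and main basal cells (median 5654 UMIs) had 28.8, 392 and 4440, with 247418. The ratios were 4.30 (2.97 to 6.09) for *Tfrc*, 2.79 (2.49 to 3.12) for *Cp* and 0.349 (0.320 to 0.381) for *Fth1*. *Cp* was 1.78 to 2.90 times as high, and *Fth1* 0.276 to 0.429 times, within each of the 4 libraries, though in the cauda the interval for *Cp* was 0.926 to 3.12. Fibroblast C4 cells stood to myofibroblasts in the same way, 3.98 times (2.78 to 5.60) for *Tfrc*, 2.59 times for *Cp* and 0.571 times for *Fth1*. Low-UMI clear cells had *Cp* at 664 against 40.4 in main clear cells, from 29 and 44 UMIs. Of these 29 UMIs 15 were in the vas deferens and 13 in the cauda. Some other populations with low ribosomal levels were lower for both genes. Principal 4 (22361) had *Tfrc* at 26.1 and *Cp* at 86.9, principal 3 (61421, median 565 UMIs) had 6.01 and 36.1, and muscle 1 (27411) had 39.6 and 13.2. Principal 6 (53465) had *Tfrc* at 150 and *Cp* at 240. Principal 10 (52438) had 65.1 and 289, and principal 11 (75389) had 41.4 and 221. These *Cp* levels were the highest among the principal populations. Over the 34 populations ribosomal protein genes had a Pearson's r of -0.53 with *Tfrc*, -0.22 with *Cp* and 0.57 with *Fth1*. Immediate early and heat shock genes, which respond to stress, had r of 0.27, 0.57 and 0.52 with the same genes, and median UMIs per cell had -0.37, -0.18 and 0.62. The points share libraries and depth. Levels are shares of a cell's UMIs, so a gene's level and that of the ribosomal genes are tied, and the part of RNA quality, stress genes and depth in these levels was not tested.

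**Figure D5:**
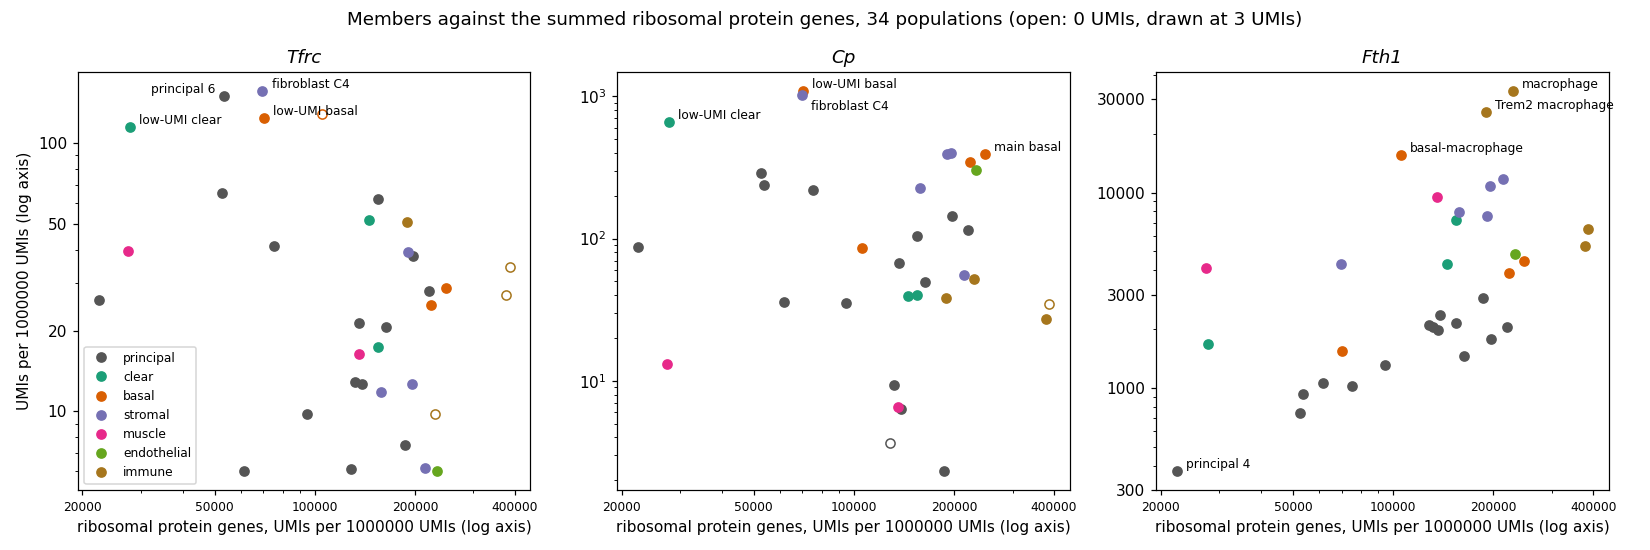
*Tfrc*, *Cp* and *Fth1* against the summed ribosomal protein genes (both UMIs per 1000000 UMIs, log axes) in the 34 populations, coloured by type; open symbols are 0 UMIs drawn at 3 UMIs. Fibroblast C4, principal 6, low-UMI basal and low-UMI clear cells lie high for *Tfrc* at low ribosomal levels, and principal 4 is lowest for *Fth1* at 374.

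Counted by one rule, a level of at least 20 UMIs and at least 4 times that of every other type, 2 of the 7 genes were restricted to a type, *Ltf* and *Trf*, where 10.4% of 12868 genes tested were. The median log2 ratio of the highest type to the next was 0.58 for the 7 and 0.48 for all genes. In principal cells 1 of 6 tested, *Ltf*, was at least 4 times higher in 1 library than in each other, against 6.12% of 9854 genes, and *Trf* had under 20 UMIs. The median log2 ratio to the next library was 1.0 for the 6 and 0.42 for all genes. In basal cells 0 of 7 differed at least 4-fold between the highest and lowest library (12.2% of 7800 genes), in stromal cells 3 of 7, *Trf*, *Tfrc* and *Cp* (14.2% of 8848), and in clear cells 1 of 6, *Ltf* (7.65% of 5074). The median log2 ratios of highest to lowest library were 1.29 in basal, 1.30 in stromal and 1.36 in clear cells, beside 0.89, 0.98 and 0.92 for all genes. With 7 genes these counts say little beyond the genes named.

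Most other genes of metal handling were not restricted to a type, as was true of most genes. Of 74 further iron, copper and zinc genes counted here, 66 had enough UMIs and 4 were restricted to a type (6.06%, against 10.4% of all genes). Of these 3 were in stromal cells (1.4% of all genes) and 1 in immune cells (2.32%). The metalloreductase *Steap3* was at 22.0 in stromal cells, the copper- and zinc-dependent extracellular superoxide dismutase *Sod3* at 124 and the copper-dependent lysyl oxidase *Lox* at 219, and the phagosomal iron transporter *Slc11a1* was at 79.0 in immune cells. By list these were 1 of 20 for iron storage and handling, 1 of 14 for iron transport, 2 of 15 for copper and 0 of 18 for zinc and metallothionein. The share of 10.4% of all genes stands beside each list, and lists this small say little. In principal cells 2 of 50 were restricted to a library (4%, against 6.12% of all genes). They were *Lcn2* in the caput (57.3 times the next) and the iron exporter *Slc40a1* in the corpus, at 21.8 from 31 UMIs (9.50 times the next). Between the highest and lowest library 6 of 44 differed at least 4-fold in basal, 9 of 55 in stromal and 2 of 29 in clear cells, shares of 13.6%, 16.4% and 6.9% that lie near those of all genes.

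Partners of the 7 genes were found at a range of levels. Of the copper genes, *Slc31a1* was between 37.1 in endothelial and 93.5 in principal cells, and *Atp7a* between 14.9 in basal and 42.1 in stromal cells. The iron gene *Slc11a2* was between 17.1 in principal and 56.1 in clear cells. The second transferrin receptor *Tfr2* was at 1.72 or less in every type, and the ferroxidases *Heph* and *Hephl1* were at 12.0 or less. *Mt3*, a further metallothionein, was at 31.5 in principal cells, or 40.6, 2.11, 0 and 48.7 from caput to vas deferens. The zinc exporter *Slc30a1*, whose promoter window held 2 cores of the metal response element, was highest in endothelial cells at 165, where *Mt1* was lowest. *Mtf1* itself was between 10.8 and 27.4 in all types. The haem oxygenase *Hmox1*, which frees iron from haem, was at 184 in endothelial and 172 in immune cells and at 23.2 in principal cells.

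Over the 34 populations the genes most like each member were named by Pearson's r of log levels among 11083 genes. *Mt1* was most like *Mt2* (0.93), *Mt3* (0.81) and *Hmgn1* (0.79), and *Mt2* like *Mt1*, *Cdc42ep5* (0.85) and *R3hcc1* (0.81). *Ltf* was most like 2 beta-defensins, *Defb11* (0.95) and *Defb9* (0.94), and *Cyp4a12a* (0.94). *Trf* was most like *Fcer1g* (0.95), *Tyrobp* (0.94) and *Wfdc17* (0.94), the first 2 being signalling adaptors of myeloid cells. For *Tfrc* they were *Piga* (0.79), *Lama1* (0.78) and *Gcn1l1* (0.77), and for *Cp* they were *Akr1b3* (0.80), *Ctsl* (0.79) and *Por* (0.79). Between members, *Fth1* and *Trf* had r of 0.70, *Tfrc* and *Cp* 0.61, and *Fth1* and *Ltf* -0.47. Populations share libraries and were built from these counts, so these values are descriptions.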

How the data were processed

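Droplet libraries of the caput, corpus, cauda and vas deferens were counted by the authors: bcl2fastq, alignment with HISAT2 2.0.4 to mm10, UMI counting per gene at 3′ ends without multimapped reads, and removal of free RNA from each cell. The deposited counts are whole UMIs per gene and cell after that removal, and the deposited metadata give each cell's total, its scran size factor (a score used as an alternative) and its population. Per the labels each library was 1 pool. Population names were shortened from the deposited names, and principal numbers were matched to the study's by numbers of cells. UMIs were summed by type, population and library, with exact 95% intervals, in Python 3.11.15 with numpy 2.4.6, scipy 1.17.1 and pandas 2.3.3. A count of 0 was set to 3 UMIs in ratios. Shares were thinned to 1000 UMIs a cell, leaving out shallower cells. Groups of under 10 cells in a library were left out. Scrublet (scanpy 1.11.5) called 178 cells (2.00%) doublets, which were kept and left out as an alternative. Likeness used log2 levels with 10 added and genes with at least 100 UMIs. Calculations were tested on simulated data. The members are always named; of the other metal genes, a fixed set and those called are. Members and lists were chosen with earlier results of these data known. Leaving out shared barcodes, the basal-macrophage population and principal 11 of the vas deferens were alternatives added after seeing the data.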

Additional observations from a re-analysis of the deposited data

Results flagged for a closer look

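For 9 ratios a cell type turned from above to below principal cells, at least 2-fold each way, between 2 libraries. Each library is 1 pool, so for each of them the difference was not tested. Values are ratios of the type to principal cells of the same library, followed by the distance between libraries on the log2 scale.

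For *Mt1* the ratio of clear to principal cells was 2.70 in the corpus and 0.492 in the vas deferens, 2.46 apart. For *Mt2* the cauda gave 3.18 and the vas deferens 0.440, 2.85 apart. In muscle *Mt1* in the cauda was 4.08 times the principal level, against 0.408 times in the vas deferens, 3.32 apart, and *Mt2* was 6.77 and 0.348 times, 4.28 apart. In endothelial cells *Mt2* was 2.92 times the principal level in the corpus and 0.198 times in the vas deferens, 3.89 apart. The lower ratio of each pair was from the vas deferens, where principal cells held *Mt1* at 18581 and *Mt2* at 9762. The other types were themselves lower there than in the library that gave the higher ratio. Muscle went from 17240 (cauda) to 7587 for *Mt1* and from 10338 to 3396 for *Mt2*. Endothelial *Mt2* went from 7849 (corpus) to 1929. Clear cells went from 14315 (corpus) to 9138 for *Mt1* and from 4853 (cauda) to 4292 for *Mt2*. Against the remaining libraries, clear *Mt1* in the vas deferens was above the caput (8378) and below the cauda (10342). Endothelial *Mt2* there was close to the caput (1942) and above the cauda (1419). Clear *Mt2* there was below the caput (4783) and the corpus (8048). The part of each level in the ratios was not tested.

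For *Cp* the ratio to principal cells turned the other way. Clear cells were at 14.8 in the vas deferens and 0.266 in the corpus, 5.80 apart. Of the 19 *Cp* UMIs of vas deferens clear cells 15 lay in 13 low-UMI clear cells, at 1558, while the 25 main clear cells were at 28.5, against 30.8 in main clear cells of the corpus. Endothelial cells were at 50.7 in the vas deferens and 0.415 in the cauda, 6.93 apart. Immune cells were at 6.27 in the vas deferens, from 18 UMIs, and 0.0710 in the corpus, from 1 UMI, 6.46 apart. Principal cells of the vas deferens held *Cp* at 8.54. For *Tfrc* basal cells were at 2.85 times the principal level in the caput and 0.438 times in the cauda, 2.70 apart.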

How the results depend on the processing

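Of 92 recomputed values that answer a comparison 69 kept their size, and of 291 log2 ratios of single genes 25 moved by over 1.5 times and 9 took the other sign. Those 9 were basal against stromal cells for *Mt2*, *Tfrc* and *Cp* and the libraries of stromal cells for *Ltf*. The 2 genes restricted to a type stayed at 2 or 3 under all alternatives run, while the share of all genes ranged from 4.44% to 23.7%. Brackets after the counts that follow give the share of all genes called at that setting. The other metal genes went from 4 (10.4%) to 15 at a fold of 2 (23.7%). They were 7 with means over cells (9.63%) and 2 with libraries weighted equally (4.44%). Genes restricted to a region in principal cells went from 1 (6.12%) to 3 at a fold of 2 (19.1%). They were 0 at a fold of 8 (2.84%), 2 at a minimum of 3 UMIs (5.54%) and 0 with means over cells (6.14%). In basal cells 0 (12.2%) became 3 at a fold of 2 (40.6%) and 1 at a minimum of 3 UMIs (13.1%). The count was 2 with means over cells (15%), 3 with the deposited size factors (14.5%) and 1 without called doublets (12.4%). In stromal cells 3 (14.2%) became 5 at a fold of 2 (43.6%) and 1 at a fold of 8 (5.55%). In clear cells 1 (7.65%) became 3 at a fold of 2 (34.8%) and 2 with means over cells (17.4%). The highest population was kept by 3 (without the corpus) to 7 of the 7 genes when a library was left out. The *Mt1* to *Mt2* ratio of 1.46 was 1.45 in cells of at least 1000 UMIs and 1.28 (without the vas deferens) to 1.62 (without the corpus) with a library left out. A stricter or looser fold or minimum changes counts by construction, and otherwise the cause was not tested. No paired analysis was possible because each group is 1 sample. With 1 library a region, spread between animals is unknown, and depth limits *Tfrc*, with 4 to 264 UMIs a type, and *Trf*, with 0 to 185.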
